A study of Mus musculus with 13 samples.

Results

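The genes described here are the matrix metalloproteases (Mmp), the ADAMTS proteases (Adamts) and the tissue inhibitors of metalloproteases (Timp). They were chosen by symbol alone: every gene of the peak lists whose symbol starts with Mmp, Adamts or Timp followed by a digit. This gave 35 genes of the 18562 in any list, with 16 Mmp, 17 Adamts and 2 Timp genes. RefSeq GRCm38.p6 names 46 such genes, and the other 11 had no entry in the lists used here (Mmp2, Mmp8, Mmp19, Mmp21, Mmp23, Mmp24, Mmp27, Adamts15, Adamts16, Timp3 and Timp4).

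The lists come from ChIP-seq of 4T1 cells, a metastatic line from a spontaneous mammary tumor of a BALB/cJ mouse. The sg-Ctrl cells carried a non-targeting guide RNA. The Nup210 KO cells were the single clone KO-N13, made with CRISPR/Cas9, so effects of the clone and of the knockout cannot be told apart. Guides were carried by a lentiviral vector with puromycin selection, and Cas9 was given transiently by adenovirus. The MAb414 antibody binds several nucleoporins. H3K4me3 and H3K27me3 were profiled in sg-Ctrl and KO cells, and NUP210 and the nuclear pore complex (NPC, antibody MAb414) in sg-Ctrl cells only. Each of the 6 conditions has 1 library. No test of KO against sg-Ctrl was therefore possible, and every interval given is a 95% interval that covers counting error only.

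MMPs are zinc endopeptidases that cut collagens, laminins, elastin and cell surface proteins, and tumor cells use them to pass through matrix. ADAMTS proteases are secreted relatives with thrombospondin repeats that cut proteoglycans, trim procollagens or act on microfibrils. TIMPs bind the active site of these enzymes and block it. H3K4me3 marks the start of genes that are active or poised, while H3K27me3 is laid down by Polycomb repressive complex 2 over silent genes. NUP210 is a membrane-spanning protein of the nuclear pore.

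H3K4me3 was listed at the start of 18 genes (68.4% of all listed genes had it in either list). H3K27me3 was listed on the body of 14 (5853 of all 18562 listed genes had it in either list). Adamts8 and Adamts17 had both marks (4.82% of all listed genes did), 16 genes had H3K4me3 alone and 12 had H3K27me3 alone. The remaining 5 genes had neither mark and entered through NUP210 or NPC peaks (Mmp1a, Mmp1b, Mmp10, Mmp12 and Mmp13). Genes with H3K27me3 were long, with a median of 142 kb, against 21.5 kb for those with H3K4me3 alone. H3K27me3 lay on 10 of the 35 genes in sg-Ctrl (26.8% of all listed genes) and on 13 in KO (27.6%). Counting peaks of any FDR, NUP210 lay on 12 (33.9%) and NPC on 12 (30.8%).

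**Figure D1:**
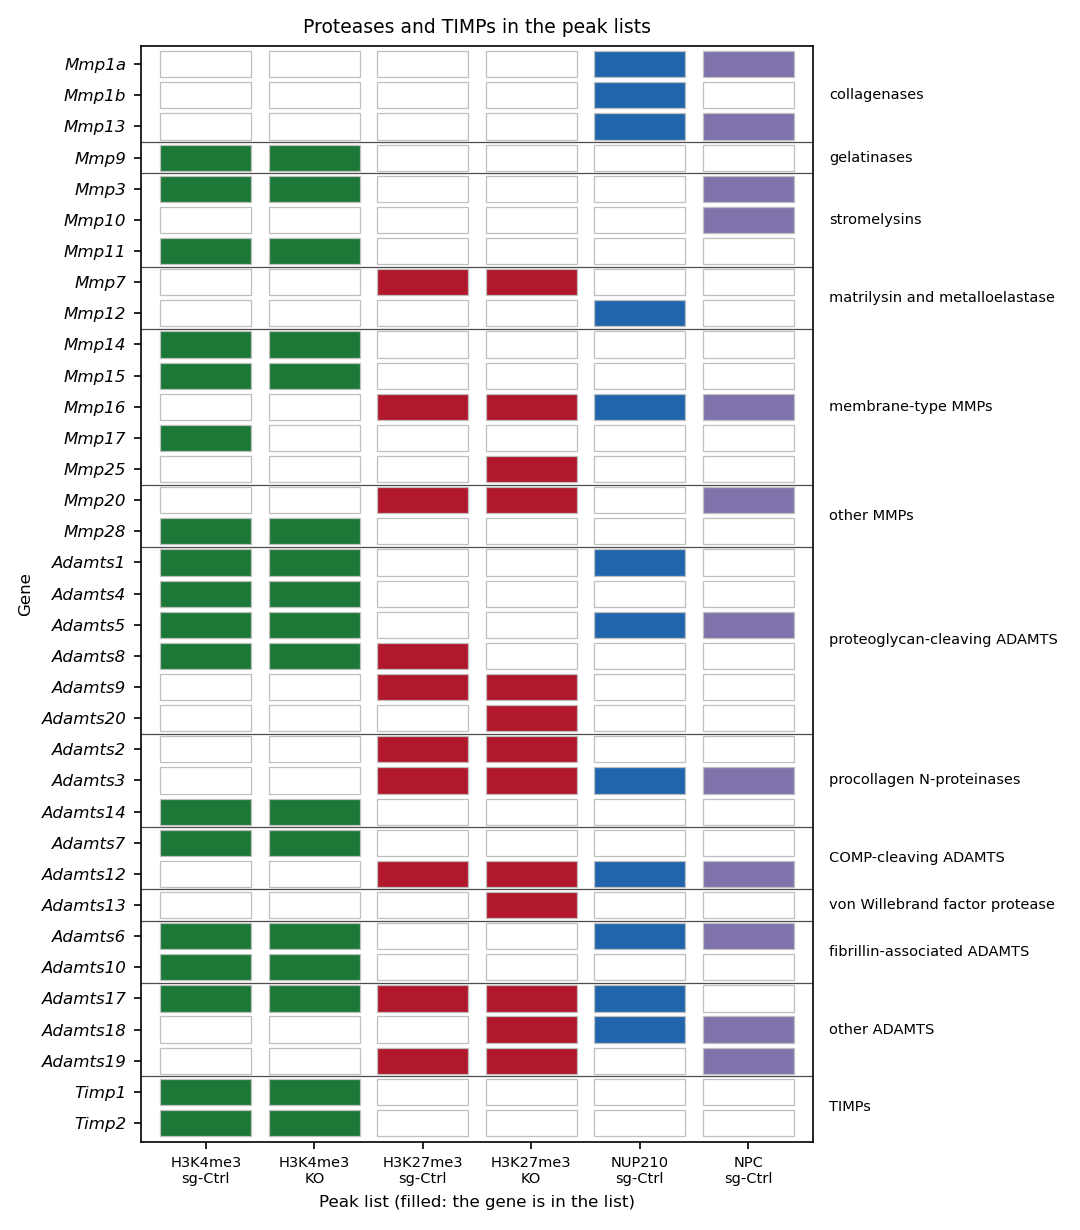
Filled squares show which of the 35 genes (y axis, grouped by role) have a peak in each of the 6 lists (x axis). H3K4me3 and H3K27me3 share 2 genes, Adamts8 and Adamts17, and the collagenases have only NUP210 or NPC peaks.

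The genes were also sorted by role, with 1 to 6 listed genes in each and no test between roles. The genes sorted as collagenases, Mmp1a, Mmp1b and Mmp13, had neither histone mark. Both listed TIMPs, the gelatinase Mmp9 and the fibrillin-associated Adamts6 and Adamts10 had H3K4me3 and no H3K27me3. Among the 6 listed proteoglycan-cleaving ADAMTS genes, 4 had H3K4me3 (Adamts1, Adamts4, Adamts5 and Adamts8) and the related pair Adamts9 and Adamts20 had H3K27me3 instead. The procollagen N-proteinases Adamts2 and Adamts3, which remove the amino-terminal propeptide of collagens, had H3K27me3, while the third member of that group, Adamts14, had H3K4me3. Other roles were also split. Of the membrane-type MMPs, Mmp14, Mmp15 and Mmp17 had H3K4me3 while Mmp16 and Mmp25 had H3K27me3. Of the stromelysins, Mmp3 and Mmp11 had H3K4me3 and Mmp10 had neither mark. Of the COMP-cleaving pair, Adamts7 had H3K4me3 and Adamts12 had H3K27me3.

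The cells carried the marks of epithelium: all 5 epithelial marker genes looked up, Krt8, Krt18, Epcam, Cdh1 and Krt14, had an H3K4me3 peak in both libraries. Of 15 markers of other cell types, 3 had one in both libraries (Cd68, Col1a1 and Pdgfra). At the start of Nup210 itself H3K4me3 had 885 reads in the control library and 913 in the KO library (log2 ratio -0.41), which does not check the knockout, since a mark on the start can stay when the protein is lost. The H3K4me3 lists held 11018 and 10854 distinct peaks with 26236314 and 24873356 reads, and the H3K27me3 lists 9555 and 8874 peaks with 7719297 and 26811061 reads. NUP210 and NPC peaks held 7194586 and 5866175 reads.

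On chromosome 9, 10 Mmp genes lie side by side within 427 kb (GRCm38): Mmp13, Mmp12, Mmp1b, Mmp3, Mmp1a, Mmp10, Mmp8, Mmp27, Mmp20 and Mmp7, in that order. Of these 10 genes, 8 were in some list. Only Mmp3 had H3K4me3, only Mmp20 and Mmp7 had H3K27me3, and NUP210 or NPC peaks lay on 7. A short sequence recurred in the promoters of this cluster. An AP-1 motif, TGANTCA (palindromic, so 1 search covers both strands), stood between 35 and 95 bases before the start of 8 of the 10 genes and was not found at Mmp8 and Mmp27, nor at second listed starts of Mmp12 and Mmp7 (8 of 12 cluster sequences held it). In the promoter table, which holds 300 bases per start (250 before and 50 after), 35 sequences of 32 of the 46 genes were available, and the motif was in 8 of these 35. None of the 23 sequences from genes outside the cluster held it, and of all 32851 promoters 7.81% did. The genes without a sequence, Mmp9 among them, all lay outside the cluster, so the motif could not be looked up there. Of the matches, 6 read TGAGTCA, 1 TGACTCA and 1 TGAATCA. The 100 bases before each start are shown from 5′ to 3′ on the strand of the gene (RefSeq, GRCm38.p6), with the match in capitals, to show where the motif lies in these 8 genes.
Mmp13 (chr9:7272414-7272513, plus strand): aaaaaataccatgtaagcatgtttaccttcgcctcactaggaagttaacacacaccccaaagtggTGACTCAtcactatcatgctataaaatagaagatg
Mmp12 (chr9:7347274-7347373, plus strand): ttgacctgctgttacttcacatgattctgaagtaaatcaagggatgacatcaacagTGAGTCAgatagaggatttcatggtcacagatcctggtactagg
Mmp1b (chr9:7388027-7388126, minus strand): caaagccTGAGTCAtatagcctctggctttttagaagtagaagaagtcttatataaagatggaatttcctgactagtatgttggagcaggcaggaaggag
Mmp3 (chr9:7445722-7445821, plus strand): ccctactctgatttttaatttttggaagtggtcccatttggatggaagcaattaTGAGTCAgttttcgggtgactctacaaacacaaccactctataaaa
Mmp1a (chr9:7464041-7464140, plus strand): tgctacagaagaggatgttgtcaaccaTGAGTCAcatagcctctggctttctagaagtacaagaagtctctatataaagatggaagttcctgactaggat
Mmp10 (chr9:7502242-7502341, plus strand): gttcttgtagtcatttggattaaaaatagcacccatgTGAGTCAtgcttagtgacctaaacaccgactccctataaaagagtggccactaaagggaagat
Mmp20 (chr9:7628131-7628230, plus strand): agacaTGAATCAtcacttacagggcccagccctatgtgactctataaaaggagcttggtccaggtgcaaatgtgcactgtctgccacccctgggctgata
Mmp7 (chr9:7691990-7692089, plus strand): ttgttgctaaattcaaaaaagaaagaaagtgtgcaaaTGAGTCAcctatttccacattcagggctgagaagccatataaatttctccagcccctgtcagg

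A match is a description of letters and not a bound site. The genes of the cluster arose by duplication and are not independent. Whether reads were split between the related Mmp1a and Mmp1b was not tested. The ETS motif AGGAAG (either strand) was in 16 of the 35 sequences and in 35.4% of all promoters. The TEAD motif GGAATG (either strand) was in 2, at Timp1 and Adamts13, and in 14.7% of all promoters.

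CpG pairs were counted in the same promoter sequences. The 10 sequences under an H3K4me3 peak held a median of 18.5 CpG in 300 bases (range 1 to 44). The 25 not under an H3K4me3 peak held a median of 4 (range 0 to 44), and all promoters a median of 7. This difference came from the chromosome 9 cluster, where the 11 sequences not under an H3K4me3 peak held 0 to 7 CpG. Outside the cluster the direction turned, with a median of 19 in the 9 sequences under an H3K4me3 peak and of 22.5 in the 14 not under one. Of the genes with H3K4me3, Mmp9, Mmp17, Adamts4 to Adamts8 and Adamts10 had no sequence and are missing from these values. The ranges overlapped widely: Mmp3 had H3K4me3 with 1 CpG, and Adamts3 had none with 41. Below, the 250 bases before the start of Mmp15, the gene with the highest H3K4me3 ratio of KO to sg-Ctrl, and of Adamts3 are shown with each CpG in capitals.
Mmp15 (chr8:95352046-95352295, plus strand): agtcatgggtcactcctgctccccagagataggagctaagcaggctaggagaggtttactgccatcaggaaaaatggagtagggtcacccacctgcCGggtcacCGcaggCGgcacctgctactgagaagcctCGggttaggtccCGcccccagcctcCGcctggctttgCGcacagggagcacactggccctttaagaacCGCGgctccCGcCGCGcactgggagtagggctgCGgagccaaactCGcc
Adamts3 (chr5:89883335-89883584, minus strand): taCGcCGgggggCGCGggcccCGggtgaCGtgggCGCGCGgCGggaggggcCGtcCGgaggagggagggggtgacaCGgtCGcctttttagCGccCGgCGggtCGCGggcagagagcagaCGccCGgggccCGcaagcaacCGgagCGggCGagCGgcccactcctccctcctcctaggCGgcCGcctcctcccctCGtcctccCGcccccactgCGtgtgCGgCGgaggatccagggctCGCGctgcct

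H3K4me3 was then compared between KO and sg-Ctrl at the starts of these genes, to ask whether the mark falls on them when NUP210 is lost. The level used is scaled reads per kb: ChIP reads of the densest peak within 4 kb of the start, divided by the size of the ChIP library relative to the IgG library and by the width of the peak. The KO library was 1.27 times as large. Over all 12197 genes with a peak in both lists the log2 ratio (KO over sg-Ctrl) had a median of -0.50, so ratios are also given relative to that median. The 17 genes in both lists had a median of -0.34, with 12 below 0 and 5 above. Against the all-gene median, 7 were below and 10 above. Under this measure 2 genes, Mmp3 and Adamts10, were at least 2-fold lower (9.66% of all genes were) and 1, Mmp15, at least 2-fold higher (0.525%). Relative to the median, 0 were 2-fold lower (0.926%) and 2, Mmp15 and Adamts8, were 2-fold higher (2.2%). The side of the median depended on the measure. With total reads of the peaks in place of reads per kb, 10 of the 17 lay below the all-gene median, which was then -0.33, and with the peak over the gene start the 17 genes had a median of -0.58 against -0.50 for all genes.

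**Figure D2:**
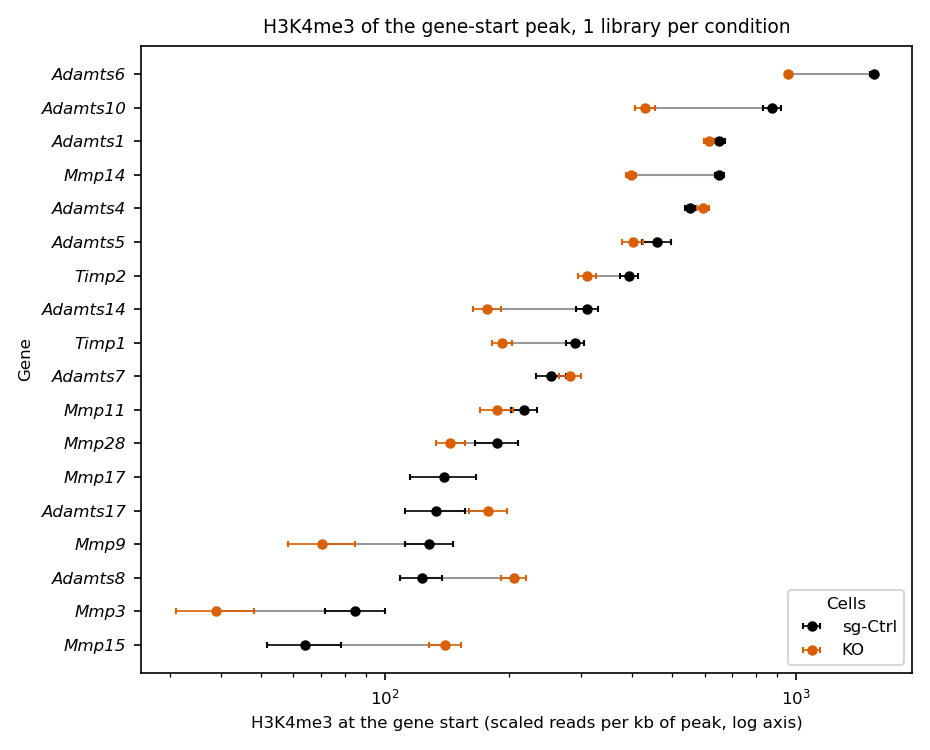
Scaled H3K4me3 reads per kb of the gene-start peak (x axis, log scale) for 18 genes in sg-Ctrl (black) and KO (orange), 1 library each, with exact Poisson intervals. Levels ran from 64.0 at Mmp15 to 1543 at Adamts6 in sg-Ctrl, and Mmp17 has no KO point.

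The genes carried less H3K4me3 than most genes that have the mark. Their median in sg-Ctrl was 289 scaled reads per kb, against 543 over all genes, and 12 of the 17 lay under the all-gene median. The KO to sg-Ctrl ratio was also set against this level. The sg-Ctrl level is the denominator of the ratio, so part of any relation between them is built in. For these 12 the median log2 ratio was -0.28, against -0.31 for all genes under the median level. The 5 at or over that level had -0.69, against -0.66 for all such genes.

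Mmp9 (gene at chr2:164948251-164955846), a gelatinase that cuts denatured collagen and the collagen of basement membranes, had 218 reads in a peak of 1600 bp in sg-Ctrl and 114 reads in 1200 bp in KO. Its level was 128 and 70.5 scaled reads per kb, a log2 ratio of -0.87 (-1.21 to -0.53). Relative to all genes this was -0.37. The deposited fold over IgG went the other way, 14.7 and 84.6, with 14 IgG reads under the sg-Ctrl peak and 1 under the KO peak. The other gelatinase, Mmp2, had no entry.

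Mmp3 (chr9:7445822-7455974), a stromelysin that cuts proteoglycans, laminin and other proteases' precursors, had the lowest ratio. Its peak of 1600 bp held 144 reads (121 to 170) in sg-Ctrl and 84 in KO, or 84.8 and 39.0 scaled reads per kb, a log2 ratio of -1.12 (-1.53 to -0.72). The KO peak was only 1.64 times the IgG level, against 4.38 in sg-Ctrl, so the gene went from weakly marked to close to IgG. Its value relative to all genes was -0.62.

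Mmp11, a stromelysin first known from tumor stroma, had 2 peaks near its start in each library. Over the start lay a peak with 741 reads in the control and 454 in the KO library, which gives -0.96 (-1.13 to -0.79). A second, upstream peak held 243 and 454 reads. The start peak in sg-Ctrl and the upstream peak in KO were also assigned to the neighbor Chchd10. In KO this second peak was the denser, so the ratio of densest peaks, -0.22, compared different peaks.

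The membrane-type MMPs, which are anchored at the cell surface, differed from each other. Mmp14 (chr14:54431604-54441258), the main activator of pro-Mmp2, had 6899 reads in sg-Ctrl and 5341 in KO in peaks of 10000 bp each, or 650 and 396 scaled reads per kb. Its log2 ratio was -0.71 (-0.77 to -0.66), and -0.21 relative to all genes. The peak also covers the start of Mrpl52. Mmp15 (chr8:95352337-95374293), which also activates other MMPs, was higher in KO, with 95 reads (76.9 to 116) in 1400 bp and 492 reads in 2600 bp, or 64.0 and 140 scaled reads per kb. With a log2 ratio of 1.13 (0.81 to 1.47), and of 1.63 relative to all genes, it stood above 99.6% of them. In total reads, and in deposited fold, its log2 ratio was 2.03. Mmp17, a membrane-type enzyme held by a lipid anchor, had 118 reads and 0 IgG reads in a peak of 800 bp in sg-Ctrl and no listed peak in KO. It was the only one of the 18 genes listed in 1 library alone, where 2.02% of all genes with a peak were listed in sg-Ctrl alone. Mmp28, a secreted MMP of skin and other epithelia, had 278 reads in 1400 bp and 584 in 3000 bp. Its log2 ratio was -0.37 per kb, 0.13 relative to all genes, and 0.73 in total reads.

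**Figure D3:**
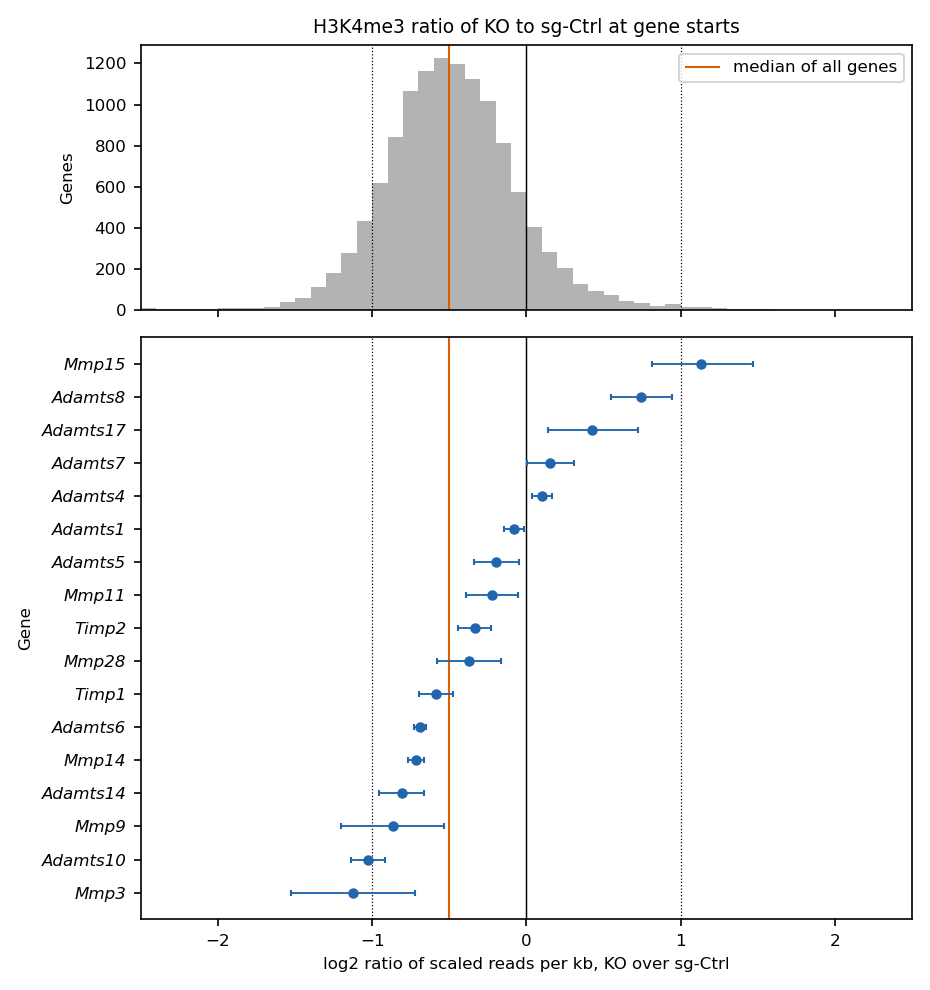
Upper panel, number of genes by log2 H3K4me3 ratio of KO to sg-Ctrl for all 12197 genes. Lower panel, the ratio of 17 proteases and TIMPs with exact binomial counting intervals. The orange line is the all-gene median of -0.50 and dotted lines mark 2-fold. Mmp3 is lowest at -1.12 and Mmp15 highest at 1.13.

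Of the 4 proteoglycan-cleaving ADAMTS genes with H3K4me3, Adamts8 had the highest ratio and none of the 4 was past 2-fold in the densest peak. Adamts8 (chr9:30942563-30962858) had 287 reads (255 to 322) in 2200 bp in sg-Ctrl and 777 in 2800 bp in KO, or 123 and 206 scaled reads per kb, a log2 ratio of 0.74 (0.55 to 0.94) and 1.24 relative to all genes. Adamts1 had 3589 and 4147 reads in 5200 and 5000 bp, or 651 and 615 scaled reads per kb. Its log2 ratio was -0.08 (-0.14 to -0.02), and 0.42 relative to all genes. Adamts5, a major aggrecanase, had 584 reads in 1200 bp and 1079 in 2000 bp. Its log2 ratio was -0.20 per kb, 0.30 relative to all genes, and 0.54 in total reads.

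Adamts4, the other classical aggrecanase, changed in shape rather than in height. In sg-Ctrl 1 peak of 6600 bp with 3874 reads covered its start. In KO the large peak, of 4200 bp and 3360 reads, ended before the start of Adamts4, and a separate peak of 600 bp with 45 reads covered it. The ratio of the densest peaks was 0.10 and that of the peaks over the start -3.31 (-3.77 to -2.89). The latter sets a narrow KO peak beside a wide sg-Ctrl peak, so neither value is a clean measure of Adamts4.

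Adamts6 and Adamts10, the 2 genes sorted here as fibrillin-associated, were strongly marked and had ratios below the all-gene median. Of all genes, 31.2% had a lower ratio than Adamts6 and 8.61% a lower one than Adamts10. Adamts6 (chr13:104287873-104494763) had the highest level of the 18 genes in sg-Ctrl, with 11787 reads in 7200 bp and 9531 in 7400 bp, or 1543 and 956 scaled reads per kb. Its log2 ratio was -0.69 (-0.73 to -0.65), and -0.19 relative to all genes. Adamts10 (chr17:33524196-33553782) had 1483 reads in 1600 bp and 1272 in 2200 bp, or 874 and 429 scaled reads per kb. Its log2 ratio was -1.03 (-1.14 to -0.92), and -0.53 relative to all genes. In total reads its ratio was -0.57, so the 2-fold call rests on the wider KO peak.

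Adamts14, a procollagen N-proteinase, had 989 and 622 reads in 3000 and 2600 bp, or 311 and 178 scaled reads per kb. Its log2 ratio was -0.81 (-0.95 to -0.66), -0.31 relative to all genes, and -1.01 in total reads. Adamts7, which cuts cartilage oligomeric matrix protein (COMP), had 539 and 1066 reads in 2000 and 2800 bp, or 254 and 283 scaled reads per kb. Its log2 ratio was 0.15 (0.00 to 0.31), and 0.65 relative to all genes. Adamts17, a gene linked to short stature and eye disease, had 141 and 337 reads in 1000 and 1400 bp. Its log2 ratio was 0.43 (0.14 to 0.72), and 0.93 relative to all genes. Its deposited fold fell from 532 to 27.8 because the sg-Ctrl peak had 0 IgG reads, which the fold counts as 0.25.

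Both TIMPs stayed near the other genes. Timp1, a secreted inhibitor of most MMPs on chromosome X, had 1535 and 1248 reads in 5000 and 4800 bp, or 289 and 193 scaled reads per kb, a log2 ratio of -0.58 (-0.69 to -0.48) and -0.09 relative to all genes. Timp2, which also helps Mmp14 to activate pro-Mmp2, had 1496 and 1422 reads in 3600 and 3400 bp, or 392 and 310 scaled reads per kb. Its log2 ratio was -0.34 (-0.44 to -0.23) and 0.16 relative to all genes.

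The H3K4me3 peak was wider in KO than in sg-Ctrl at 8 of the 17 genes and at 63.1% of all genes.

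Genes that act beside the proteases were taken from lists of 76 genes for plasminogen activation, cathepsins, ADAM proteases, ADAMTS-like proteins, MMP activators, matrix enzymes and ADAMTS substrates. H3K4me3 was in both lists for 41 of them, with a median log2 ratio of -0.41. Of these 41, 7 were at least 2-fold lower (9.66% of all genes) and 0 at least 2-fold higher (0.525%), and relative to the all-gene median 2 were lower (0.926%) and 2 higher (2.2%). Serpinb2, an inhibitor of plasminogen activators, had the lowest ratio, with 378 reads in 1800 bp in sg-Ctrl and 61 in 800 bp in KO, a log2 ratio of -1.81 (-2.22 to -1.41). It lay below the lowest protease, Mmp3.

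H3K27me3 was compared over gene bodies, to ask whether the mark spreads on these genes in KO. It covered more of them in KO. Listed peaks on the 14 genes covered 496 kb in sg-Ctrl and 725 kb in KO, a ratio of 1.46, against 1.10 over all genes. The number of peaks was 25 and 40. Of the 9 genes in both lists, 7 were covered more in KO, Adamts19 less and Mmp7 equally, where 38.3% of all genes in both lists were covered more. Another 4 genes were listed in KO alone (Adamts13, Adamts18, Adamts20 and Mmp25; 15.1% of all genes with the mark) and Adamts8 in sg-Ctrl alone (12.6%). The KO library was 3.16 times as large as the sg-Ctrl library, and its part in the longer cover was not tested.

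Gene length moved with these counts. Among genes of at least 100 kb, 59.9% of those in both lists were covered more in KO, and 6 of 7 such proteases were. Of long genes with the mark in either list, 7.21% were listed in KO alone (2 of 9 proteases) and 10.6% in sg-Ctrl alone (0 of 9). H3K27me3 in either list lay on 51.3% of the long genes and on 9 of the 10 long proteases. Adamts6 was the one without it. H3K4me3 in either list lay on 56.3% of the long genes and on 2 of the 10 proteases, Adamts6 and Adamts17.

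Density within the H3K27me3 peaks (scaled reads per kb) had a median log2 ratio of -0.10 over the 9 genes, 6 of them below 0, and of -0.13 over all genes, of which 33.8% were above 0.

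**Figure D4:**
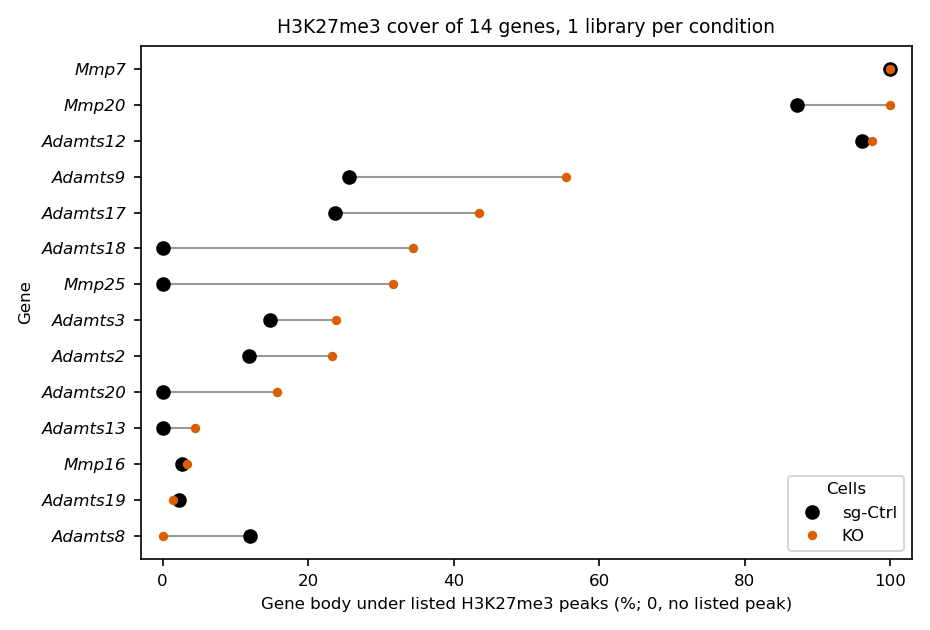
Percent of the gene body under listed H3K27me3 peaks (x axis) for 14 genes in sg-Ctrl (black) and KO (orange), 1 library each. Adamts9 went from 25.6% to 55.4% and Adamts17 from 23.7% to 43.5%, while Adamts8 went from 12.01% to none.

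Adamts12 (chr15:11064790-11346867), a COMP-cleaving protease, lay almost wholly in a Polycomb domain in both libraries. Its gene body of 282 kb was covered to 96.1% by 3 peaks in sg-Ctrl (20005 reads) and to 97.5% by 2 peaks in KO (64387 reads). Density was 62.7 and 63.0 scaled reads per kb, the highest of the 14 genes, with a log2 ratio of 0.01 (-0.02 to 0.03). Without this gene the covered length of the others was 224 and 450 kb, a ratio of 2.00.

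Adamts9 and Adamts17 gained cover by wider and additional peaks. Adamts9, which cuts versican and aggrecan, had 4 peaks of 2 to 13 kb over 33.0 kb in sg-Ctrl (899 reads), and 5 peaks of 2 to 49 kb over 71.3 kb of its body in KO (6709 reads). Density fell from 32.2 to 25.8 scaled reads per kb, a log2 ratio of -0.32 (-0.42 to -0.21). Adamts17 had 8 peaks over 74.0 kb in sg-Ctrl (2103 reads) and 10 peaks over 136 kb in KO (11388 reads), with 33.6 and 31.3 scaled reads per kb and folds over IgG of 2.30 to 5.45 and of 2.56 to 9.12.

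The procollagen N-proteinases Adamts2 and Adamts3 also had longer cover. Adamts2 went from 2 peaks over 24.0 kb (668 reads) to 5 peaks over 47.0 kb (3177 reads), with densities of 32.9 and 25.3 scaled reads per kb. Adamts3 went from 3 peaks over 31.0 kb (623 reads) to 4 peaks over 50 kb (2601 reads). Its peaks were close to IgG, with folds of 1.15 to 1.66 in sg-Ctrl and of 0.93 to 1.45 in KO, and 3 of the 4 KO peaks had an FDR above 0.05.

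Adamts18 and Adamts20 were listed in KO alone. Adamts18 had 6 KO peaks over 51.9 kb, or 34.4% of its body, with 5767 reads and folds of 1.43 to 4.13. The largest of them, of 31 kb, held 2908 reads, which at the size of the sg-Ctrl library would be 920 reads. Adamts20 had 3 KO peaks over 21.0 kb (1438 reads, folds of 1.85 to 3.62). Mmp25, a lipid-anchored MMP of neutrophils, had 1 KO peak of 5 kb with 338 reads and a fold of 4.21. Adamts13, which cuts von Willebrand factor, had 1 KO peak of 7 kb with 457 reads and a fold of 8.13, which covered its start but only 4.38% of its body. Scaled reads per kb of these 4 genes ran from 24.4 to 29.9, above the 5th percentile of sg-Ctrl peaks (21.8) and below their median (32.5).

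Mmp7 and Mmp20 lie next to each other in the chromosome 9 cluster. Mmp20, the enamel protease, had 2 sg-Ctrl peaks of 29 and 61 kb with 1009 and 1962 reads, the second of which ran over Mmp7, the small matrilysin of glandular epithelium. In KO 1 peak of 133 kb with 13617 reads (chr9:7615001-7748000) took the place of both. Cover of Mmp20 went from 87.2% to 100%, Mmp7 was covered whole in both, and density on Mmp20 stayed at 39.0 and 38.3 scaled reads per kb. The cluster genes on the other side, from Mmp13 to Mmp27, had no H3K27me3 peak.

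Mmp16 and Adamts19 had little of the mark. Mmp16, a membrane-type MMP of 265 kb, had 1 peak of 7 kb in sg-Ctrl (157 reads, fold 1.95) and 1 of 9 kb in KO (530 reads, fold 1.98). Adamts19 had 1 peak of 5 kb (129 reads, fold 1.75) and 1 of 3 kb (250 reads, fold 1.53).

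Adamts8 had H3K27me3 listed in sg-Ctrl alone, and more H3K4me3 in KO. In sg-Ctrl a peak of 21 kb with 502 reads (459 to 548) and a fold of 3.95 (chr9:30924001-30945000) ran over the start and 12.01% of the body and covered all 2200 bp of the H3K4me3 peak. In KO no H3K27me3 peak was listed on the gene, though that library was the larger. Only 2.44 kb of the sg-Ctrl peak lay on the gene body. The lists hold only peaks that meet a gene body, so a KO peak that ended upstream of Adamts8 would not be seen. Adamts17 had both marks in both libraries, but its H3K4me3 peak lay 52.4 kb from the nearest H3K27me3 peak in sg-Ctrl and 52.0 kb in KO. Both marks were thus on 2 proteases in sg-Ctrl, out of 723 genes in all, and on 1 in KO, out of 601. With 1 library of mixed alleles and cells, peaks that overlap do not show both marks on 1 nucleosome.

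Peaks of NUP210 and NPC on these genes were low. NUP210 had 29 peaks on 12 of the genes, with folds over IgG of 0.79 to 1.90 and a median of 1.20. Of these, 21 had an FDR of at most 0.05, 5 were below IgG and 0 reached 2-fold. NPC had 33 peaks on 12 genes, with folds of 0.84 to 1.53 and a median of 1.10, 15 of them had an FDR of at most 0.05 and 13 were below IgG. Among genes of at least 100 kb, 68% had a NUP210 peak and 63.6% an NPC peak, and 6 of the 10 long proteases had each. Of the 12 genes with NUP210, 8 also had NPC, and 21 of the 25 NUP210 peaks on those 8 genes overlapped an NPC peak. No such share was computed over all genes, so these counts cannot be judged against a background. They include NPC peaks below IgG, such as 2 of 2 on Adamts5, 5 of 6 on Adamts6 and 1 of 1 on Mmp13.

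**Figure D5:**
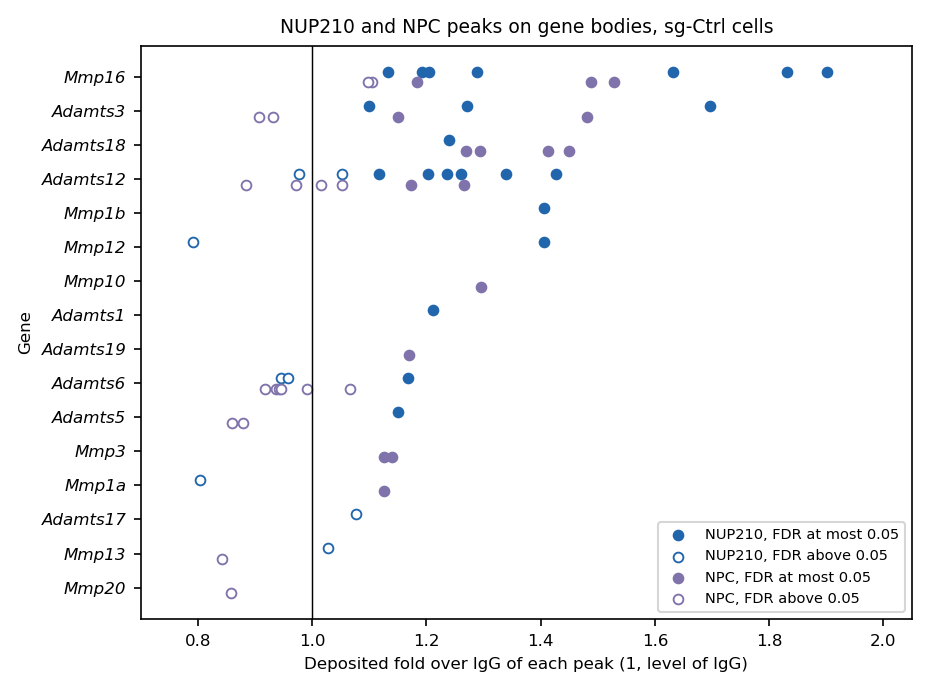
Deposited fold over IgG (x axis) of each NUP210 (blue) and NPC (purple) peak on 16 genes (y axis) in sg-Ctrl cells, filled where the FDR is at most 0.05. Mmp16 has the highest folds, up to 1.90 for NUP210, and no peak reaches 2.

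Mmp16 had the strongest NUP210 signal. It had 7 peaks, all with an FDR of at most 0.05, over 31.3% of its body, and the highest, of 12 kb, held 296 reads against 154 IgG reads. Its 5 NPC peaks had folds of 1.10 to 1.53. Adamts3 came next, with 3 peaks over 36.3% of its body and a top fold of 1.70 (379 reads against 221 in IgG). Adamts12 had 8 peaks over 37.9% of its body, with folds of 0.98 to 1.43, and 6 passed the FDR limit.

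Peaks over Adamts6 and Adamts5 were wide and low. On Adamts6 1 peak of 161 kb with 4520 reads had a fold of 1.17, and on Adamts5 1 peak of 84 kb with 2196 reads had a fold of 1.15. Adamts1, next to Adamts5 on chromosome 16, had 1 peak of 11 kb over its 3′ end (337 reads, fold 1.21), and Adamts18 had 1 of 3 kb (99 reads, fold 1.24). The single peak on Adamts17 (fold 1.08) had an FDR above 0.05.

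On the chromosome 9 cluster, 1 NUP210 peak of 11 kb with 347 reads against 244 in IgG (fold 1.41) met both Mmp12, the macrophage elastase, and Mmp1b. The peaks on Mmp13 (fold 1.03), on Mmp1a (0.80) and the other one on Mmp12 (0.79) had an FDR above 0.05. NPC peaks with an FDR of at most 0.05 lay on Mmp3, Mmp1a and Mmp10, with folds of 1.13 to 1.29.

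NUP210 lay on 5 of the 14 genes with H3K27me3 in either list (Adamts3, Adamts12, Adamts17, Adamts18 and Mmp16), where it lay on 44.3% of all genes with that mark. It lay on 4 of the 18 with H3K4me3 (Adamts1, Adamts5, Adamts6 and Adamts17), against 26.1% of all such genes, and on 4 with neither mark. Genes with neither mark entered only through NUP210 or NPC peaks, so that last count is partly set by the choice of genes. These counts take peaks of any FDR. The only NUP210 peaks on Adamts17, Mmp13 and Mmp1a had an FDR above 0.05, and 9 genes had one of at most 0.05. Of the 30 pairs of a NUP210 peak and a gene, 12 overlapped an H3K27me3 peak of sg-Ctrl (34.1% of pairs over all genes did) and 13 one of KO (35%), and 8 of these were on Adamts12. The added overlap in KO was on Adamts18. On Mmp16, the gene with the highest NUP210 folds, 1 of 7 NUP210 peaks met H3K27me3 in either library.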

How the data were processed

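ChIP-seq peak lists of 6 libraries were used. SICER was run by the authors on each library against its IgG, in 200-bp windows for H3K4me3 and in 1000-bp windows otherwise. The deposited columns hold raw counts for ChIP and for IgG, a p-value, an FDR, and the ratio (fold) of both counts after scaling by library size. Submitters' processing notes name Trimmomatic, STAR, Picard, Bowtie2, mm9, mm10 and NCBIM37 without roles. Gene starts or ends matched GRCm38 within 50 bp for 87.8% of 5798 genes, so positions are given on that build, counted from 1, with peaks in whole windows. Lists hold only peaks that meet a gene body, or lie within 4 kb of a start for H3K4me3. Not analysed here were 4 samples of RNA-seq, and the 3 IgG samples entered through the IgG reads of the lists.

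Library size relative to IgG was recovered from counts and folds, and was 1.06 and 1.35 for H3K4me3 in sg-Ctrl and KO, 0.847 and 2.68 for H3K27me3, 1.01 for NUP210 and 0.606 for NPC. Total depth is otherwise unknown. Intervals are exact Poisson for reads and exact binomial (Clopper-Pearson) for ratios, and cover counting error only. Called means past 2-fold. Values in full were given for genes listed in 1 H3K4me3 list only, the 6 lowest and 4 highest H3K4me3 ratios of at least 100 reads, all genes with H3K27me3 or with NUP210 at an FDR of at most 0.05, Mmp2, Mmp9, Mmp14, Adamts1 and the TIMPs, with the rest added for completeness. The genes, lists and motifs were chosen with earlier results of these data known, and the 100 kb limit and the peak over the start were chosen after values had been seen. The H3K4me3 ratio was tested on simulated reads and the covered length on a made-up example, and the other steps were not tested in this way. The simulation kept the sg-Ctrl peaks in both lists and judged genes with 1 unshared peak of at least 100 reads. Changes of peak width, split peaks and shared peaks were not simulated. Intervals came from scipy 1.17.1 (Python 3.11.15), tables from pandas 2.3.3 with numpy 2.4.6, and plots from matplotlib 3.10.9.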

Additional observations from a re-analysis of the deposited data

How the results depend on the processing

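No paired analysis was possible because each ChIP-seq condition has 1 library, and the RNA-seq samples that share replicate numbers were not analysed here. The median H3K4me3 log2 ratio of the 17 genes, -0.34, became 0.086 when libraries were scaled by reads in shared peaks, 0.16 with the all-gene median set to 0, 0.15 with the chromosome median set to 0 and -0.58 with the peak over the gene start, a setting chosen after seeing the data. Its sign thus rests on the scaling. It lay between -0.47 and -0.28 with total reads, deposited folds, the peak of most reads, both peak filters, IgG reads subtracted and without the genes that share a peak. The 2 genes at least 2-fold lower became 0 with shared-peak scaling, 0 against the all-gene median, 1 with folds of at least 2 in both lists, 6 at 1.5-fold, 3 with total reads (Mmp3, Mmp9 and Adamts14, without Adamts10) and 3 with the peak over the start (Adamts4 joined), and with deposited folds the 2 were Mmp3 and Adamts17. The 1 gene at least 2-fold higher became 2 with shared-peak scaling, against the all-gene median, with total reads, with deposited folds and at 1.5-fold. With folds of at least 2, a filter added to this count after seeing the data, genes with H3K4me3 in sg-Ctrl alone went from 1 to 2 (Mmp3 joined Mmp17). The median H3K27me3 density ratio, -0.10, became -0.23 with shared-peak scaling and 0.54 over the joined length of both lists' peaks, where the longer KO peaks add reads. At an FDR of at most 0.05, genes with NUP210 went from 12 to 9 and genes with NPC from 12 to 8. At a fold of at least 2 both went to 0. In the 150 bases nearest the start, ETS matches went from 16 to 8 and TEAD matches from 2 to 1. The counts of genes with H3K27me3 (7 to 10 in sg-Ctrl, 10 to 13 in KO) and its covered ratio (1.35 to 2.00) stayed within 1.5 times. No called ratio of a single gene changed sign in the alternatives run. Among genes not called, 5 changed sign with each of the 3 rescalings, Adamts4, Adamts5 and Mmp28 with total reads, and Adamts4, Adamts17 and Mmp9 (2.53) with deposited folds. Peaks of 45 to 144 reads, as at Mmp3, Mmp15 and Adamts4, are the least precise.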
